A study of Mus musculus with 20 samples.

Results

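The promoters of 9 genes that write, copy or remove DNA methylation were examined in mouse sperm, out of 22480 promoters with values. The genes were chosen by name for their function and not by any measured value, although earlier results of these data were known. They are the methyltransferases Dnmt1, Dnmt3a and Dnmt3b, their partners Uhrf1 and Dnmt3l, the dioxygenases Tet1, Tet2 and Tet3, and the glycosylase Tdg. All 9 had a promoter probe.

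In mammals, methyl groups sit mostly on the cytosine of CG dinucleotides. Dnmt1 copies the methylation pattern after replication and is brought to half-methylated DNA by Uhrf1, whereas Dnmt3a and Dnmt3b place new marks, helped in germ cells by the inactive relative Dnmt3l. The TET enzymes oxidize methylcytosine, and Tdg excises the oxidized bases so that repair can restore plain cytosine. In the male germ line, the marks are largely erased in primordial germ cells and are placed again before birth, and loss of Dnmt3l in mice leaves males sterile.

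Sperm of 20 males aged 8 weeks was profiled in 4 groups of 5 libraries. Males of the strains C57BL/6J and FVB/N were either prenatally exposed to DEHP or not. Exposed pregnancies were given DEHP (a phthalate used to soften plastics) by mouth at 300 mg/kg/day between gestation days 9 and 19, and control pregnancies were given its vehicle, corn oil. Neither strain carried an engineered allele, and sperm had diffused out of minced epididymis and vas deferens without sorting. According to the study's methods, each preparation was inspected under the microscope and those with somatic cells were not used. DEHP and control libraries also differed in the length of their reads and in their average number of read pairs. The DNA of DEHP and control males was sent out as separate batches, for both library preparation and sequencing. By the study's methods the DEHP libraries had more read pairs on average. Treatment and these differences cannot be told apart.

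Methylated fragments were captured with a methyl binding domain and sequenced (MBD-seq), so a level, in normalized reads per 2200 bp promoter probe, depends on both methylation and the number of CG sites. In such a sample, fewer sperm with a methylated copy and fewer methylated CG sites per copy cannot be told apart. Each group is known here by the mean and SD that the authors computed over its 5 libraries, and single libraries were not analysed here. Group means and SDs allow neither a permutation test nor a test of counts, so no test between animals was run. The depth of each single library is unknown, beyond the averages by treatment. Summed over all promoters, the means came to 226268 (control) and 153283 (DEHP) normalized reads in C57BL/6J, and to 141092 (control) and 150346 (DEHP) in FVB/N, so the C57BL/6J controls stood above the other groups. Where 4 values are given in a row below, they are those of C57BL/6J controls and DEHP, then of FVB/N controls and DEHP.

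The label of sperm was checked with lists of promoters that are methylated in somatic cells, the imprints on the maternal copy. Of 11 promoters at maternally methylated imprints, which are bare in sperm, the median levels were 3.8, 4.1, 2.9 and 4.4 normalized reads. The matching medians of all promoters were 5.0, 5.3, 3.0 and 4.9 normalized reads. None of the 11 was at 0 in any group, and Nnat stood out from the list with 26.5 ± 8.6 (SD, n = 5) in C57BL/6J controls. The other list, 8 germline genes whose promoters are methylated in somatic cells, had medians of 6.0, 3.75, 8.15 and 3.05 normalized reads. These were above the medians of all promoters in both control groups and below them in both DEHP groups. This list therefore gave no uniform reading. Its levels moved with treatment and are given again beside Tet1.

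The probes ran from 2000 bp before to 200 bp after 1 annotated start of each gene, and for several genes this was not the CG-dense start. The Tet1 probe (mm10, chr10:62879815-62882014, minus strand) lay wholly inside the gene, with 1881 bases in an intron of the longer transcripts and 319 in exons. The RefSeq start of Tet1 was 7310 bp upstream and outside the probe. The Dnmt1 probe (chr9:20959689-20961888, minus strand) covered an upstream start, with 2000 bases outside the gene, 156 in exons and 44 in an intron, and another start of Dnmt1 was 7265 bp downstream. Dnmt1 is known to use different first exons in germ cells and somatic cells. The Dnmt3l probe (chr10:78040287-78042486, plus strand) held a start of Dnmt3l and also exon bases of the neighbouring gene Aire, and the Tet2 probe (chr3:133544191-133546390, minus strand) held its RefSeq start within a CG island-like stretch and exon bases of Gm42567.

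The starts of these 4 genes are shown because the levels below belong to the probed start and not to the gene as a whole. Each run is 300 bases of the GRCm38.p6 assembly, read 5′ to 3′ on the strand of the gene from 250 bases before to 50 bases after the start, with CG sites in capitals. The annotated starts outside the probes were taken from RefSeq.
Tet1 probed start: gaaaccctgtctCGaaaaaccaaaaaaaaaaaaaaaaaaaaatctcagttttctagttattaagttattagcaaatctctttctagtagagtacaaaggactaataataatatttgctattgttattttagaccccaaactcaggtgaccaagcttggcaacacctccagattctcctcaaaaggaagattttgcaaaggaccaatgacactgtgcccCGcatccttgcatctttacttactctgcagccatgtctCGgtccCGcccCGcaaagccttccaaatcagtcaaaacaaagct
Tet1 start outside the probe: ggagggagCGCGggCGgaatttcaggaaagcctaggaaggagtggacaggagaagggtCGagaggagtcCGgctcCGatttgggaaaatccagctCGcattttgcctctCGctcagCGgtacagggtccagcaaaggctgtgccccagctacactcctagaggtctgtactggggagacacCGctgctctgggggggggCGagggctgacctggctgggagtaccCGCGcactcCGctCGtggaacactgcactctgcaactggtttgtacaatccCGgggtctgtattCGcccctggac
Dnmt1 probed start: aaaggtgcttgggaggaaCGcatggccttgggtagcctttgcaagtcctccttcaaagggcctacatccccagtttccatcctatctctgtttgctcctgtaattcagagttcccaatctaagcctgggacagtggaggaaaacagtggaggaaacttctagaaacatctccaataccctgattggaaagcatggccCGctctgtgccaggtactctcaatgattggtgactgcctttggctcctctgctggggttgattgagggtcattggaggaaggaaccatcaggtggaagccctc
Dnmt1 start outside the probe: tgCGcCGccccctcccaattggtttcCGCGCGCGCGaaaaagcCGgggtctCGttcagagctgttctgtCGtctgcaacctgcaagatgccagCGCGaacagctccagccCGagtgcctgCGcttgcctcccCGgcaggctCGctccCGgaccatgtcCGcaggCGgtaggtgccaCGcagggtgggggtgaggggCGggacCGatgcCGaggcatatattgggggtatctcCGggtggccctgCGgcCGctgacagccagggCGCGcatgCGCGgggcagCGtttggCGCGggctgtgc
Dnmt3l probed start: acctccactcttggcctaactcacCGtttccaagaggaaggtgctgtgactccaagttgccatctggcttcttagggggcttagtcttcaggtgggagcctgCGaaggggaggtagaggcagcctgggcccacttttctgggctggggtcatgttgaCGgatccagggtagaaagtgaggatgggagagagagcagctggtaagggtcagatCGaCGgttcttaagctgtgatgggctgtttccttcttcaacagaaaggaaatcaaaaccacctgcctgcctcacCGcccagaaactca
Tet2 probed start: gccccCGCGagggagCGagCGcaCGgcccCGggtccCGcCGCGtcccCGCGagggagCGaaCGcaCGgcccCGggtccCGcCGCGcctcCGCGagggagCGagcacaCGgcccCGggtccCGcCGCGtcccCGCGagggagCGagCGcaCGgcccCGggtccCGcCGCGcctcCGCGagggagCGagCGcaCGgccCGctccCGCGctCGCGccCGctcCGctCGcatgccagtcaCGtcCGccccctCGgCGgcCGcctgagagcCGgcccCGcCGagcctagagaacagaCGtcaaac

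The probed start of Tet1 (chr10:62879965-62880264) held 5 CG sites in these 300 bases, against 17 at the start outside the probe (chr10:62887275-62887574). For Dnmt1 the contrast was larger, with 2 sites at the probed start (chr9:20959839-20960138) and 33 at the start outside (chr9:20952574-20952873). Dnmt3l (chr10:78042037-78042336) held 6 sites and Tet2 (chr3:133544341-133544640) held 57. The searched letters were CG, which read the same on both strands and cannot overlap each other. Of 32851 RefSeq windows of this length, 94.6% held at least 1 CG and the median was 7, and 99.8% of them held fewer CG sites than the Tet2 window.

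The other probes differed in the same respect. The Uhrf1 probe (chr17:56301337-56303536, plus strand) held a start with 12 CG sites in 300 bases, and a denser start with 33 sites lay 976 bp downstream and outside. It also shared 950 bases with the probe of Arrdc5. The Dnmt3a probe (chr12:3804523-3806722, plus strand) ended before the 2 nearest RefSeq starts of the gene, at 457 and 637 bp downstream of the probed start. The Tet3 probe (chr6:83456193-83458392, minus strand) lay inside the gene, with 2096 of its bases in an intron, and the RefSeq start was 14714 bp further downstream. The probes of Dnmt3b (chr2:153647449-153649648, plus strand) and Tdg (chr10:82627838-82630037, plus strand) each held their RefSeq start, with 30 and 26 CG sites around it. Exon bases of Dnmt3bos were also in the Dnmt3b probe.

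**Figure D1:**
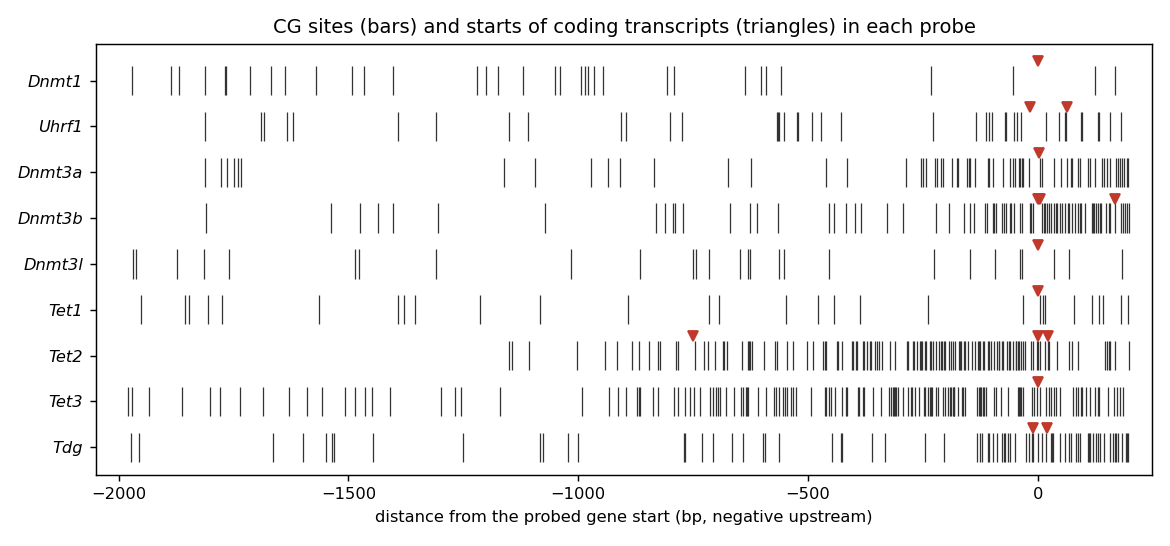
Map of the 9 probes, with the distance from the probed start in bp on the horizontal axis and 1 gene per row. Bars are CG sites and triangles are starts of coding transcripts. Sites of Dnmt1, Dnmt3l and Tet1 were spread thinly over the whole probe, whereas those of Tet2, Dnmt3a, Dnmt3b and Tdg were crowded near the start, and those of Tet3 filled most of the probe.

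Levels at the 9 probes covered most of the table by rank, though not its highest values. As a mean over the 4 groups, they went from 0.775 normalized reads at Tet2 to 23.9 at Dnmt1, and the median of this mean over all promoters was 4.65. In each group, 6 or 7 of the 9 members were above the median of all promoters. All levels below are the authors' mean ± SD over 5 libraries, in normalized reads per probe.

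Of the maintenance pair, Dnmt1 had 32.9 ± 13.4, 13.9 ± 2.9, 26.0 ± 7.3 and 22.7 ± 6.1. These means were above 94.1%, 88.6%, 96.2% and 97.6% of all promoters of their groups, so the probed upstream start of Dnmt1 was among the more heavily captured promoters everywhere, and the C57BL/6J DEHP mean was the low one. Uhrf1, which brings Dnmt1 to newly copied DNA, had 7.6 ± 3.3, 7.1 ± 2.1, 4.8 ± 4.1 and 6.6 ± 2.1. Its 4 means lay within the SD of the FVB/N controls.

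Among the genes for new methylation, Dnmt3a had 20.8 ± 9.0, 10.8 ± 6.7, 14.8 ± 7.0 and 13.2 ± 4.4. Dnmt3b, the other catalytic enzyme of this pair, had 3.8 ± 2.0, 5.4 ± 3.2, 2.1 ± 2.5 and 5.0 ± 2.7. Its mean was higher in DEHP than in controls in each strain, with overlapping ranges. The cofactor Dnmt3l had 29.4 ± 12.9, 15.6 ± 5.3, 18.3 ± 14.0 and 17.0 ± 3.8. The C57BL/6J controls were its high group and also, with the FVB/N controls, the widely spread ones.

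The TET genes were unlike each other. Tet1 had 19.8 ± 8.1 in controls and 8.1 ± 2.4 in DEHP of C57BL/6J, and 23.6 ± 9.0 in controls and 6.6 ± 2.6 in DEHP of FVB/N. Both control groups were high and both DEHP groups were low, and the mean ± SD ranges of control and DEHP did not meet in either strain. Tet2 had 1.4 ± 2.0, 1.0 ± 0.7, 0.5 ± 0.7 and 0.2 ± 0.4, which is near the bottom of the table with 127 CG sites to capture. Tet3 had 14.4 ± 1.4, 8.5 ± 4.2, 9.0 ± 4.0 and 11.7 ± 5.1, and the small SD of its C57BL/6J controls, 0.0972 of the mean, was the tightest of the 36 member values. Tdg, which excises the products of these enzymes, had 8.3 ± 3.1, 5.1 ± 3.2, 2.8 ± 3.5 and 2.4 ± 1.6. Its C57BL/6J controls were the high group.

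**Figure D2:**
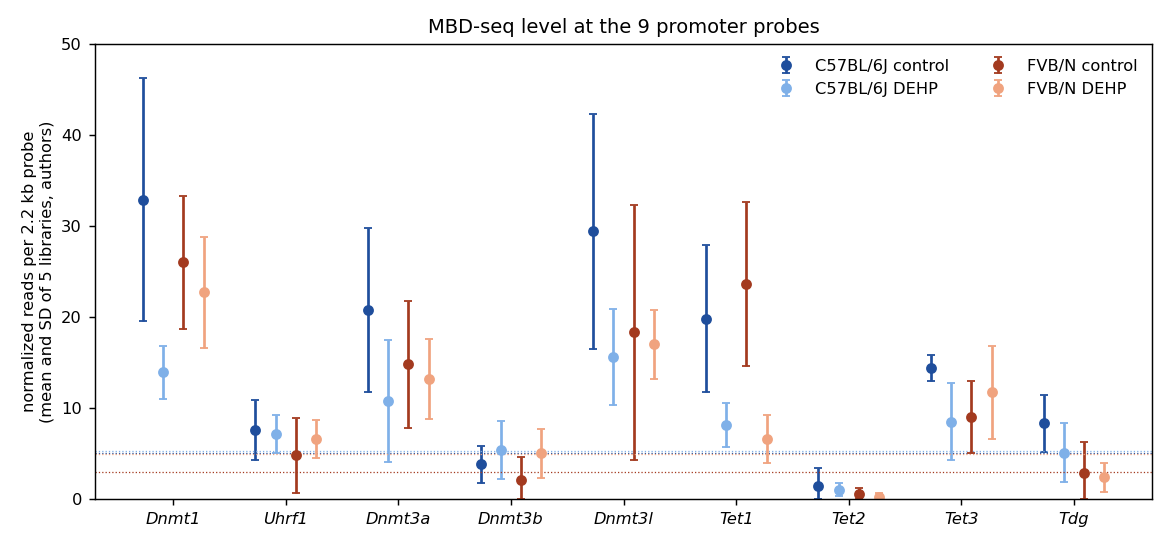
Normalized reads per 2200 bp probe on the vertical axis for the 9 genes in the 4 groups, with points for the authors' means and bars for 1 SD over 5 libraries, drawn down to 0 where a bar would pass it. Dotted lines are the medians of all promoters in each group, and Tet1 is the gene whose control means (19.8 and 23.6) both stand well above its DEHP means (8.1 and 6.6).

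Neighbours in the order of levels were mostly within each other's spread. In C57BL/6J controls the order was Dnmt1, Dnmt3l, Dnmt3a, Tet1, Tet3, Tdg, Uhrf1, Dnmt3b and Tet2, and 3 of the 8 steps exceeded the larger SD of the neighbours, namely Tet3 to Tdg, Uhrf1 to Dnmt3b and Dnmt3b to Tet2. In each other group 1 of the 8 steps did so. Tet1 stood behind Dnmt1, Dnmt3l and Dnmt3a in C57BL/6J controls and behind Dnmt1 alone in FVB/N controls, but Tet3 was above it in both DEHP groups.

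Members with fewer CG sites mostly had the higher levels, and Tet3 was the main exception. The 9 probes held 34 (Dnmt1), 42 (Uhrf1), 67 (Dnmt3a), 80 (Dnmt3b), 27 (Dnmt3l), 29 (Tet1), 127 (Tet2), 148 (Tet3) and 76 (Tdg) CG sites, against a median of 45 over all promoters. Per CG site, the mean over groups was 0.744 normalized reads at Dnmt3l, 0.702 at Dnmt1 and 0.501 at Tet1. The median of all promoters was 0.127. Dnmt3a with 0.222 and Uhrf1 with 0.155 were nearer to it, and the members with the most CG sites were below it, at 0.0736 for Tet3, 0.0612 for Tdg, 0.0509 for Dnmt3b and 0.0061 for Tet2. Among promoters with over 100 CG sites the median level was 2.17 normalized reads, and Tet3 with 10.9 stood above it while Tet2 with 0.775 stood below.

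**Figure D3:**
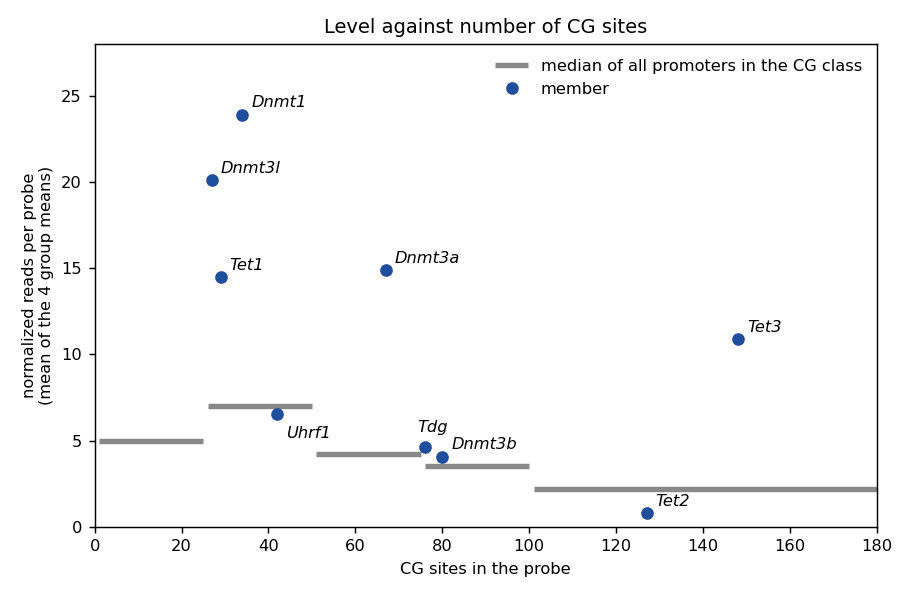
Mean of the 4 group means, in normalized reads per probe, against the number of CG sites in the probe. Points are the 9 genes and grey lines are the medians of all promoters in classes of CG sites; Dnmt1, Dnmt3l and Tet1 stand above the 7.03 of their class, and Tet2 alone stands clearly below its class.

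The first comparison asks whether prenatal DEHP was followed by different sperm methylation at these promoters in C57BL/6J. The mean was lower in DEHP than in controls at 8 of 9 members and higher at Dnmt3b, where 54.8% of all promoters were lower. As a ratio, the change was largest at Tet1 and Dnmt1. The log2 ratio of DEHP over control, with 1 normalized read added to each mean, was -1.19 ± 0.30 (SE) at Tet1 and -1.19 ± 0.28 at Dnmt1. These are 2.29-fold and 2.28-fold lower on that scale, which understates the change of low promoters.

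Members were called separated when no possible placing of 5 libraries with the given mean and SD lets the groups overlap, since a library cannot lie more than 1.79 SD from the mean of 5. The rule is strict, since groups can be apart without meeting it. By this rule 0 of 9 members were separated in C57BL/6J, where 1.42% of all promoters were separated and lower in DEHP and 0.249% were separated and higher. By the looser rule of mean ± 1 SD ranges that do not overlap, 3 members were lower in DEHP, namely Dnmt1, Tet1 and Tet3, beside 11.8% of all promoters. That share rose with level. It was 66.6% among promoters with a mean over groups of at least 20 normalized reads, such as Dnmt1. Between 10 and 20, the class of Tet1 and Tet3, it was 26.9%. No member was higher by that rule, beside 3.67% of all promoters.

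The rest of the members gave smaller log2 ratios in C57BL/6J. They were -0.89 ± 0.45 (SE) at Dnmt3a, -0.87 ± 0.34 at Dnmt3l, -0.70 ± 0.29 at Tet3 and -0.61 ± 0.40 at Tdg. At Tet2 and Uhrf1 they were -0.26 ± 0.58 and -0.09 ± 0.30, within 1 SE of 0, and both turned positive when the groups were scaled to equal sums. Dnmt3b had 0.42 ± 0.42. The median of the 9 was -0.70, and that of all promoters was -0.10.

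In this strain the size of the ratio moved with the level of the promoter. Of 1609 promoters with a mean over groups of at least 20 normalized reads, the class of Dnmt1 and Dnmt3l, 99.1% had a lower mean in DEHP and the median log2 ratio was -1.13. Of 3770 promoters between 10 and 20, the class of Dnmt3a, Tet1 and Tet3, 90.7% were lower with a median of -0.64. Dnmt1 was thus near the middle of promoters of its own level. At Tet1, 12.0% of its class had a still lower ratio. Of 10575 promoters between 1 and 5, the class of Dnmt3b and Tdg, only 33.1% were lower and the median log2 ratio was 0.23. With equal sums the log2 ratios of Dnmt1 and Tet1 were -0.65 and -0.67, and 0 of 9 members were apart by the looser rule.

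In FVB/N, Tet1 alone of the 9 genes was apart by the looser rule. It was 3.24-fold lower in DEHP, with a log2 ratio of -1.69 ± 0.32 (SE), whereas the median of all promoters was 0.35. Of the 22480 promoters, 50 (0.222%) had a lower ratio than Tet1, and of the 3770 promoters in its class of level, 0.292% did. As any placing of 5 libraries would have it, FVB/N control libraries could lie between 7.36 and 39.8 normalized reads and DEHP libraries between 1.81 and 11.4, so the groups could still overlap.

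By the strict rule 0 of 9 members were separated in FVB/N, where 0.859% of all promoters were separated and lower and 0.774% were separated and higher. By the looser rule Tet1 was lower, beside 3.67% of all promoters and 6.02% of its class of level. By that rule 0 members were higher, beside 8.69% of all promoters. When the groups were scaled to equal medians Tet1 was separated by the strict rule as well, with a log2 ratio of -2.37. The share of all promoters separated under that scaling was not taken, so this call has no background beside it. Over the scalings and pseudocounts tried, the ratio of Tet1 was between -2.37 and -1.69 in FVB/N and between -1.28 and -0.67 in C57BL/6J.

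The other TET genes and Tdg were closer to 0 in FVB/N. The log2 ratio was -0.32 ± 0.37 (SE) at Tet2, 0.34 ± 0.37 at Tet3 and -0.16 ± 0.67 at Tdg. That of Tet3 changed sign when the groups were scaled to equal medians. Among the methyltransferases and partners it was -0.19 ± 0.24 at Dnmt1, -0.15 ± 0.35 at Dnmt3a, -0.10 ± 0.49 at Dnmt3l, 0.39 ± 0.49 at Uhrf1 and 0.95 ± 0.60 at Dnmt3b, and that of Uhrf1 changed sign with equal medians. Each of these 8 ratios was within 2 SE of 0 with the means as deposited. As in C57BL/6J, the ratio moved with the level of the promoter. Among promoters of at least 20 normalized reads, the class of Dnmt1 and Dnmt3l, the median log2 ratio was -0.44 and 78.7% were lower in DEHP. It was 0.13 between 10 and 20, the class of Dnmt3a and Tet3, and 0.49 between 1 and 5, the class of Dnmt3b and Tdg. With equal medians Dnmt1 had -0.87, and it was apart when equal medians and the looser rule were combined, which was chosen after seeing the data.

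Other promoters moved with Tet1 in FVB/N. All 8 germline genes of the list that is methylated in somatic cells had a lower mean in DEHP, beside 28.7% of all promoters, and their levels summed to 63.9 normalized reads in controls and 33.2 in DEHP. Of them, 4 were apart and lower by the looser rule, beside 3.67% of all promoters. Examples were Dazl, an RNA-binding protein of germ cells, with 10.6 ± 3.3 in controls and 2.8 ± 1.7 in DEHP, and Tex12, of the synaptonemal complex, with 6.8 ± 2.7 and 1.5 ± 0.5. In C57BL/6J the same sums were 57.4 and 37.4, while those of all promoters also fell, from 226268 to 153283. There 7 of 8 were lower, beside 54.8% of all promoters, and 1 was apart and lower, beside 11.8%. The 11 maternal imprints summed to 47.6 (control) and 54.1 (DEHP) normalized reads in FVB/N, and to 62.7 and 47.8 in C57BL/6J. Nnat alone went from 26.5 in controls to 9.5 in DEHP of C57BL/6J. In that strain 6 of the 11 had a higher mean in DEHP and 4 a lower one, beside 43.5% and 54.8% of all promoters. The median log2 ratio of the 11 was 0.14 there, beside -0.10 for all promoters. In FVB/N 7 of the 11 had a higher mean in DEHP and 4 a lower one, beside 69.1% and 28.7% of all promoters. Their median log2 ratio was 0.08 in FVB/N, beside 0.35 for all promoters. None of these promoters was at 0. Preparations with visible somatic cells had been left out, and the part of any remaining ones in the Tet1 values was not tested.

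**Figure D4:**
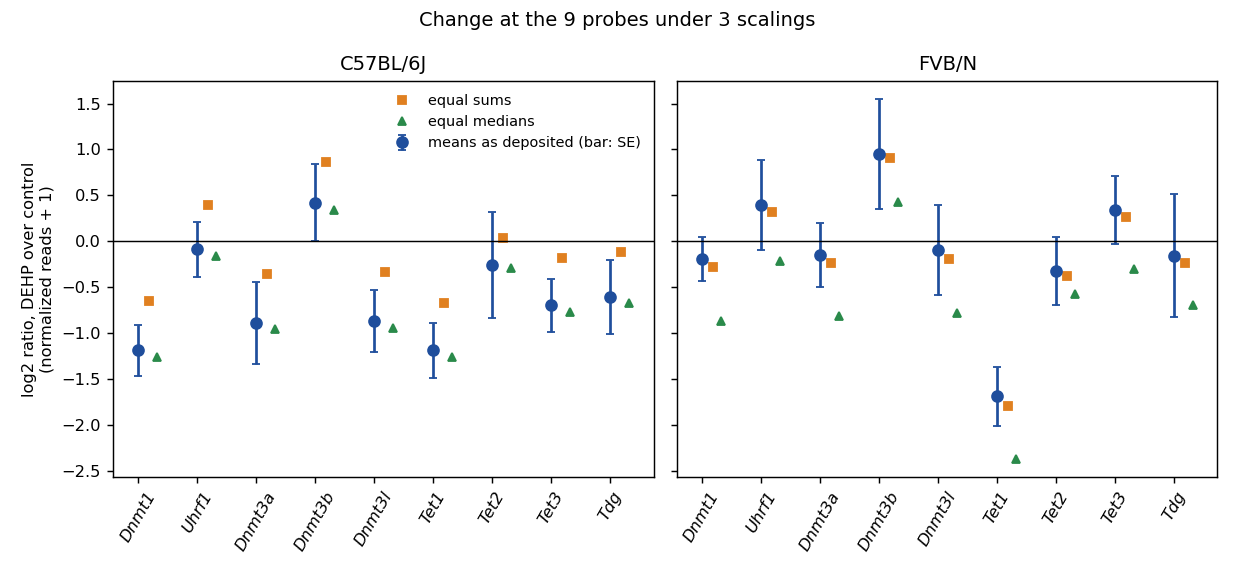
Log2 ratio of DEHP over control on the vertical axis, from normalized reads with 1 added, for the 9 genes in C57BL/6J (left) and FVB/N (right). Circles with SE bars are the means as deposited, squares are means scaled to equal sums and triangles are means scaled to equal medians; Tet1 in FVB/N is the lowest point group under each of the 3 scalings.

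The difference between the strains in the DEHP ratio was taken gene by gene, as the C57BL/6J log2 ratio less that of FVB/N. Its median over all promoters was -0.50. Tet1 was the member furthest above this median, with 0.50 ± 0.44 (SE), and 91.5% of promoters were below it. Tet3 with -1.04 ± 0.47 and Dnmt1 with -1.0 ± 0.37 were furthest below, and 16.2% and 18.5% of promoters were lower still. For Tet2 the difference was 0.06 ± 0.69, for Dnmt3l -0.77 ± 0.60, for Dnmt3a -0.73 ± 0.57, for Dnmt3b -0.54 ± 0.73, for Uhrf1 -0.48 ± 0.57 and for Tdg -0.45 ± 0.78. No test of these differences was run.

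The strains were then compared within each treatment, with C57BL/6J over FVB/N. In controls, 8 of 9 means were higher in C57BL/6J, as were those of 82.1% of all promoters, and the median log2 ratio was 0.62 for the members and 0.54 for all promoters. Tdg had the largest ratio of the members, 1.29 ± 0.63 (SE), and Tet1 was the exception with -0.24 ± 0.34. The strict rule separated 0 of 9 members, beside 1.06% of all promoters separated and higher in C57BL/6J and 0.0267% separated and lower. The looser rule gave 0 of 9 as well, beside 9.84% and 0.258%. Dnmt3b, Tdg, Tet1 and Tet2 kept their direction under all scalings, and the other 5 did not.

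In DEHP males the strains were closer. The median log2 ratio of all promoters was 0.04, and 5 of 9 members were above 0, beside 53.1% of all promoters. Tdg was again high, with 0.84 ± 0.45 (SE), as was Tet2 with 0.74 ± 0.31, whereas Dnmt1 was lower in C57BL/6J with -0.67 ± 0.21 and 2.46% of all promoters had a lower ratio than Dnmt1. Both rules gave 0 of 9 members, beside 0.307% of all promoters separated and higher and 0.0311% separated and lower, and beside 2.68% and 0.703% by the looser rule. This comparison and the preceding one share their libraries with the DEHP comparisons.

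The Tdg probe was also the one with the most sequence variants between the strains in the annotation deposited with the values. It held 25 promoter variants, against 9 at Dnmt3b, 2 at Dnmt1 and 0 at the other 6 members, and Tdg carried 6 functional variants against 2 for Dnmt1 and 1 for Tet3. Whether these variants bear on read alignment or on CG sites was not tested.

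The wider pathway was covered by 52 of 55 related genes, and the remaining 3 were not analysed here. In C57BL/6J, 31 of the 52 had a lower mean in DEHP, beside 54.8% of all promoters, and the median log2 ratio was -0.11, beside -0.10 for all promoters. In FVB/N, 36 had a higher mean, beside 69.1% of all promoters, and the median was 0.28, beside 0.35. By the strict rule, 1 of 52 was separated in C57BL/6J, whereas in FVB/N 0 were. Over all promoters 1.42% were separated and lower in exposed C57BL/6J males, so a count of 1 was near the background.

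The separated gene was Zbtb38, a zinc finger reader of methylated DNA and the reader with the highest mean. It had 48.5 ± 5.2, 15.5 ± 6.3, 21.0 ± 5.9 and 12.9 ± 2.0 normalized reads, with log2 ratios of DEHP over control of -1.58 ± 0.26 (SE) and -0.66 ± 0.20. Its C57BL/6J controls were also separated from, and higher than, the FVB/N controls. Of the 9 readers, 7 had a lower mean in exposed C57BL/6J males and 4 in exposed FVB/N males, beside 54.8% and 28.7% of all promoters.

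Lig1, the ligase that joins fragments at replication, had the highest mean of the 13 targeting and maintenance partners and, like Tet1, was low in both DEHP groups. It had 29.0 ± 11.4 and 10.8 ± 4.3 in C57BL/6J controls and DEHP, and 26.9 ± 6.3 and 11.0 ± 2.7 in FVB/N. The ranges of mean ± 1 SD were apart in both strains, with log2 ratios of -1.35 ± 0.34 (SE) and -1.22 ± 0.21. The group as a whole had medians of -0.09 and 0.19.

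In the remaining groups no gene was apart by either rule between DEHP and control. The 12 base excision repair genes had a median log2 ratio of 0.02 in the first strain and 0.46 in the second, and their highest gene, the glycosylase Neil1, had 13.3 ± 3.0, 12.2 ± 3.6, 8.0 ± 8.4 and 9.9 ± 3.0 normalized reads. The 5 genes of deaminases and Gadd45 proteins had medians of -0.10 and -0.20. For the 3 genes that protect imprints the medians were -0.15 and 0.28, and Zfp57, which binds methylated imprints, had 15.2 ± 4.2, 11.7 ± 2.4, 6.7 ± 4.8 and 9.1 ± 4.1. The 10 genes that supply methyl groups had medians of -0.06 and 0.50, and their highest, the homocysteine methyltransferase Bhmt, had 16.3 ± 2.9, 11.8 ± 2.6, 6.1 ± 6.6 and 9.7 ± 2.4.

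**Figure D5:**
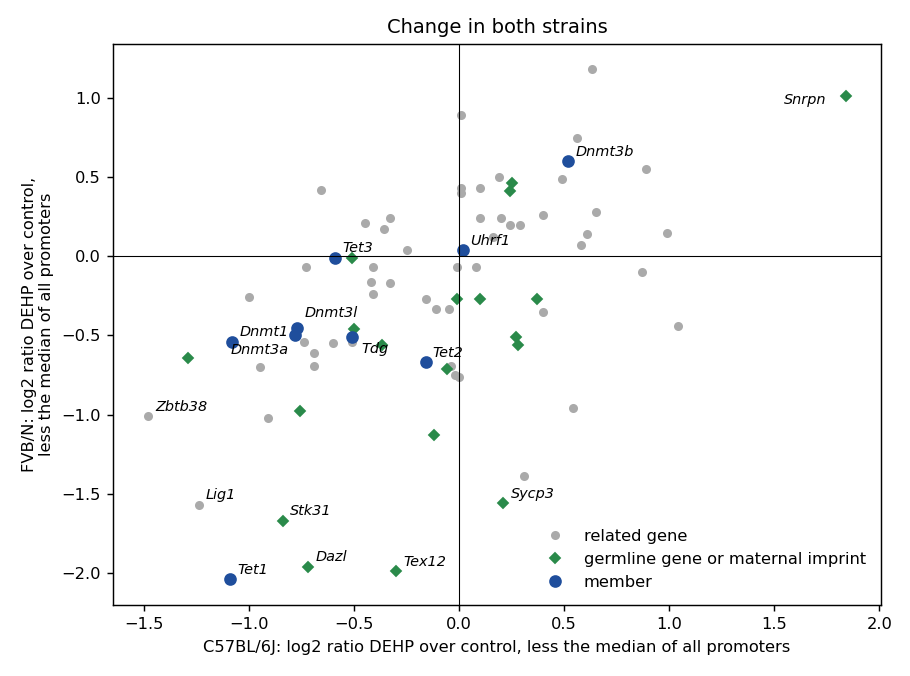
Log2 ratio of DEHP over control less the median of all promoters, for C57BL/6J on the horizontal axis and FVB/N on the vertical axis. Blue circles are the 9 genes, grey circles the related genes and green diamonds the germline genes and maternal imprints; Tet1 lies lowest at -1.09 and -2.04, near Lig1, Dazl and Stk31.

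For the 3 members with the highest means, the promoters outside the pathway with the closest pattern over the 4 groups were sought by Euclidean distance on log2(mean + 1). Dnmt1 was nearest to Icam2 (0.25) and Sftpa1 (0.26), Dnmt3l to Gltscr1l (0.06) and Vit (0.07), and Dnmt3a to Olfr281 (0.05) and Klk1b24 (0.09). The pattern of Dnmt1 thus had no neighbour as close as those of Dnmt3l and Dnmt3a. Icam2 had 34.3 and 16.1 normalized reads in C57BL/6J controls and DEHP, and 27.4 and 20.7 in FVB/N.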

How the data were processed

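MBD-seq libraries of sperm DNA from 20 males in 4 groups were analyzed through the table of 22480 promoter probes that the authors deposited. The authors aligned read pairs onto mm10, counted the pairs over each probe and normalized them, and the submitters' processing notes name Bowtie 0.12.7 and edgeR for these steps. The deposited signal is a group's mean, with its SD, in normalized reads per probe and with 1 decimal. The exact scaling is not given in the sources used here. Other columns hold the authors' log2 fold changes, p-values and false discovery rates, and 6 columns hold expression values of another dataset, and none of these were used.

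A log2 ratio is the log2 of (mean + 1) over (mean + 1), and its SE comes from the authors' SDs over 5 libraries. Members were called separated when mean ± 1.79 SD ranges did not overlap, with each mean and each SD widened by 0.05 for rounding. A distance of 1.79 SD is the largest possible among 5 values. The rule was also run on simulated data as a check of the code, and as a bound it could give no wrong separation there. Means and SDs allow no count test or permutation test, and approximate tests on 5 values were not used, so the test of counts planned for single libraries was replaced by this rule. Alternatives were a pseudocount of 0.1, equal sums, equal medians, subtraction of the median, a 1 SD bound and a filter at a mean of 1. CG sites, starts and sequences were read from GRCm38.p6 with its annotation and from RefSeq, in which all 9 members were matched. Python 3.11.15, numpy 2.4.6, pandas 2.3.3 and matplotlib 3.10.9 were used.

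The members, the related genes and the check lists were chosen with earlier results of these data known. All 9 members were named, and of the related genes those separated between DEHP and control in either strain and the one with the highest mean of each group, except 1 that is not reported here. For the 3 highest members the 2 nearest promoters were named. Germline and imprint promoters were named as examples after their values were seen.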

Additional observations from a re-analysis of the deposited data

How the results depend on the processing

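No paired analysis was possible because only group means and SDs entered, and no replicate could be left out for the same reason. With the 1 SD bound, 3 members were apart in C57BL/6J (Dnmt1, Tet1 and Tet3) and 1 in FVB/N (Tet1) between DEHP and control, in place of 0, and 0 in both strain comparisons. With equal medians, 1 member was separated in FVB/N (Tet1). Further settings, chosen after seeing the data, combined the 1 SD bound with a scaling. With equal sums they gave 0 members in C57BL/6J, 1 in FVB/N (Tet1) and 1 between strains in DEHP (Dnmt1), and with equal medians 3, 2 (Dnmt1 and Tet1) and 1 (Dnmt1). The filter at a mean of 1 left 8 members and kept each count at 0. Shares of all promoters were not taken under any scaling, so the counts under scalings have no background beside them.

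Of the 9 log2 ratios, 7 kept their direction under all 5 settings in C57BL/6J, 7 in FVB/N, 4 between strains in controls and 7 between strains in DEHP. Of 144 single values under alternatives, 5 moved by more than 1 SD. These were Dnmt1 with equal medians in FVB/N (-0.87) and between strains in controls (-0.39), Tet3 between strains in controls with equal sums (0.00) and equal medians (-0.05), and Tet2 between strains in DEHP with a pseudocount of 0.1 (1.87). Ranked by reads per CG site, 6 of 9 members moved by 1 place, with Dnmt3l before Dnmt1, Tet1 before Dnmt3a and Uhrf1 before Tet3. Means with 1 decimal and the unknown depth of single libraries limit low promoters such as Tet2 most.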

Other observations

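Some related genes outside the naming rule were apart by the 1 SD rule and were singled out after their values were seen. By that rule 3 of the 52 related genes were lower in DEHP of C57BL/6J, beside 11.8% of all promoters. In DEHP of FVB/N 1 was higher, beside 8.69%, and 3 were lower, beside 3.67%. Between the control groups 4 were higher in C57BL/6J, beside 9.84%. Zbtb4, a zinc finger reader of methylated DNA, had 19.0 normalized reads in C57BL/6J controls against 8.3 in C57BL/6J DEHP and 3.6 in FVB/N controls. Kdm1b, a histone demethylase needed for imprints in oocytes, had 2.7 in controls and 9.7 in DEHP of FVB/N, with a log2 ratio of 1.53 ± 0.39 (SE). Ehmt1, a histone methyltransferase, had 2.7 and 0.8 in the same groups. Among the maternal imprints, Snrpn had 0.5 ± 0.7 in C57BL/6J controls and 4.0 ± 1.0 in C57BL/6J DEHP, which were separated, and 1.1 ± 1.2 and 4.4 ± 1.2 in FVB/N. Arrdc5, whose probe shares 950 bases with that of Uhrf1, had 35.0 and 16.2 normalized reads in C57BL/6J controls and DEHP and 27.3 and 12.8 in FVB/N, unlike Uhrf1.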
